A study of Mus musculus with 2 samples.

Results

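Bone marrow LSK cells, which carry no lineage markers and are positive for Sca-1 and c-Kit, hold the blood stem cells and their first progenitors. Within them, cells with high CD150 and low CD48 form the SLAM gate, which is enriched in long-term stem cells. The cells described here are the upper and the lower tercile of that gate by an antibody tag against CLCA3A1, a surface protein of the family named after calcium-activated chloride channel regulators. They numbered 377 cells, of which 189 were tag-high and 188 tag-low, out of 555 cells in the gate, 4068 cells that passed the quality limits and 4688 cells in all. A cell was kept if under 10% of its UMIs (unique molecular identifiers, 1 for each captured molecule) came from mitochondrial genes and over 1500 genes were detected. The gate was set separately for each of the barcode suffixes 1 and 2, at or above the 75th percentile of the CD150 tag and at or under the 25th percentile of the CD48 tag, and the terciles were taken inside it.

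The cells came from C57BL/6JRj mice, an old group of 22 to 28 months and a young group of 3 to 5 months, with the LSK cells of 4 mice pooled per age and 1 library made from each pool. No treatment or engineered allele was involved. The barcode suffix marks the library, but no label pairs a suffix with an age, so old and young cells are not told apart here and each suffix stands as 1 unnamed library of 1 pool. No test was therefore made, and these tag values chose the cells and, through the fold, the genes. All ratios below are descriptions of cells chosen by their own tag, with exact 95% intervals that cover counting error only, and a gene was called when it differed by at least 1.5-fold in the same direction in both suffixes with 1 CPM added. CPM are the UMIs of a gene scaled to a common total.

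CITE-Seq counts transcripts and antibody-bound DNA tags in the same droplet, so a surface protein and the whole transcriptome can be set side by side in 1 cell. CLCA3A1 was tagged indirectly, through an unconjugated antibody, a PE/Cy7-labelled second antibody and a tagged antibody against PE, and the deposited tag column carries the name Clca1. The study asked about the part of YAP and TAZ in aging stem cells and considered CLCA3A1 as a possible tracer of TAZ activity. TAZ, encoded by Wwtr1, is a transcriptional effector of the Hippo pathway that acts through TEAD factors, and PU.1, encoded by Spi1, is a myeloid and lymphoid regulator. MHC class II molecules present peptides to T cells, and Cd74 encodes the invariant chain that accompanies them to the surface.

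Most stem cell markers fixed for the gate were higher inside it than outside, and the 2 gates were not alike. Slamf1, the gene of CD150, was 8.72-fold higher in gated than in other cells in suffix 1 (interval 5.55 to 13.6) and 7.27-fold higher in suffix 2 (6.23 to 8.48), and Procr, Mecom, Fgd5, Mllt3 and Ctnnal1 were 2.22- to 4.57-fold higher in both. Hlf differed least, at 1.07-fold (0.997 to 1.14) and 1.52-fold (1.44 to 1.60). The progenitor gene Flt3 had 30 UMIs (13.3 CPM) in the gate of suffix 1 and 11 (2.09 CPM) in that of suffix 2, and Cd48 had 2 and 8. Cd34, a marker that is low on long-term stem cells of adult mice, stood at 202 CPM in the gate of suffix 1, or 0.380 of the level in its other cells (0.345 to 0.417), and at 40.3 CPM in that of suffix 2, or 0.0983 (0.0854 to 0.113). The gate began at 40 CD150 tags and reached up to 224 CD48 tags in suffix 1, and began at 407 and reached up to 42 in suffix 2. Total depth in the 4 groups compared was 819021 UMIs in 59 tag-high cells and 740748 in 60 tag-low cells of suffix 1, and 1938676 UMIs in 130 tag-high cells and 1591667 in 128 tag-low cells of suffix 2. No barcode was shared between suffixes inside the gate. Defining markers of mature T cells (Cd3d, Cd3e, Cd3g, Trbc1), of B cells (Ms4a1, Pax5) and of basophils (Mcpt8, Prss34) were at 0 UMIs in all 4 groups. Other members of these lists were detected. The B and plasma cell list summed to 48.8 CPM in tag-high and 49.9 CPM in tag-low cells of suffix 1 and to 137 and 153 CPM in suffix 2, with Cd79b at 34, 33, 82 and 61 UMIs in that order of groups and Igkc at 0, 0, 166 and 152. The T and NK cell list summed to 18.3, 18.9, 63.4 and 72.9 CPM. The 9 neutrophil and monocyte markers summed to 4.88 CPM in tag-high and 29.7 CPM in tag-low cells of suffix 1, and to 9.28 and 16.3 CPM in suffix 2, with Itgam the most abundant in each. Of them Ngp, Retnlg and Ccr2 were at 0 in all 4 groups. Their part in the results was not tested.

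The tag was far from alike in the 2 libraries. In suffix 1 the gated cells had a median of 25 CLCA3A1 tags and a range of 0 to 336, and in suffix 2 a median of 214 and a range of 0 to 938. The tag-high tercile of suffix 1 began at 54 tags, with 53 in the highest cell outside it, and its tag-low tercile ended at 12, with 13 in the next cell. In suffix 2 these values were 262 and 261 for the upper limit and 159 and 162 for the lower one. A tag-low cell of suffix 2 could thus carry more tags than many tag-high cells of suffix 1, and the group medians were 105 (tag-high) and 5 (tag-low) in suffix 1 against 336 and 105 in suffix 2. At least 100 tags were found on 19.8% of the gated cells of suffix 1 and 84.3% of those of suffix 2.

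**Figure D1:**
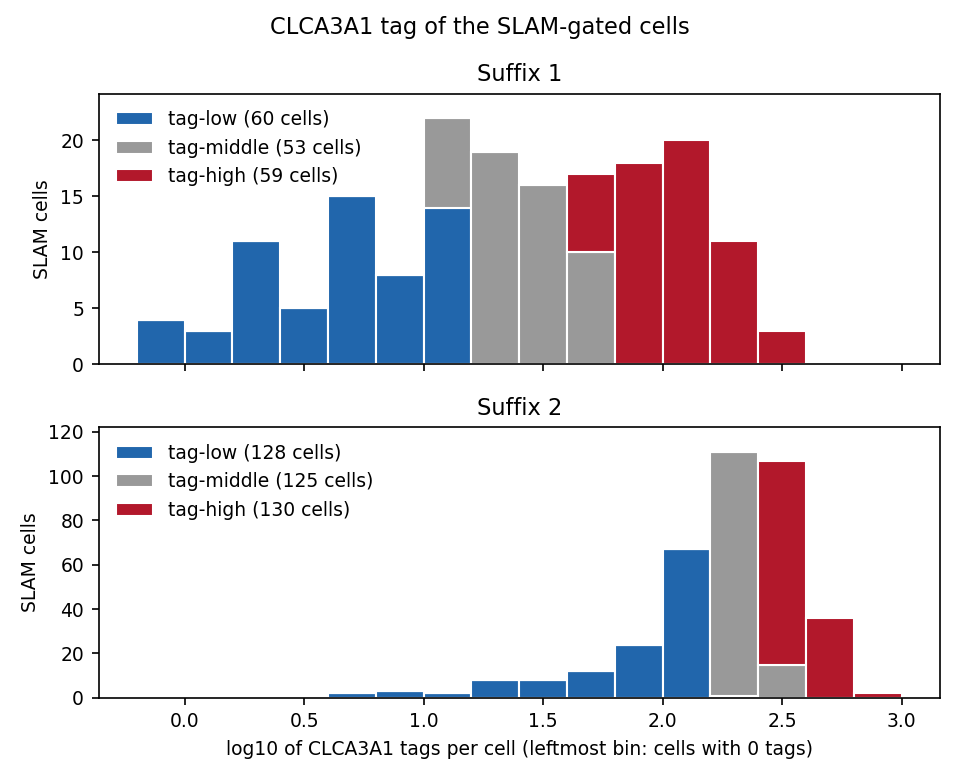
Number of SLAM-gated cells (y axis) by the log10 of their CLCA3A1 tags (x axis, bins of 0.2) in each suffix, stacked and coloured by tercile. The 59 tag-high cells of suffix 1 start at 54 tags, where suffix 2 still has tag-low cells, and cells with 0 tags stand in the leftmost bin.

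Other tags and depth moved with CLCA3A1 inside the gate. The median CD150 tag was 437 in tag-high and 113 in tag-low cells of suffix 1, with intervals of 352 to 547 and 88 to 160, and 915 against 685 in suffix 2. Tag reads deposited as unmapped, whose source was not tested, had medians of 38 and 28 in suffix 1 and of 51.5 and 30 in suffix 2. Depth moved in the same direction, from a median of 12341 to 14092 UMIs per cell in suffix 1 and from 12760 to 14310 in suffix 2. CD48 did not move alike, with medians of 99 (tag-high) and 118 (tag-low) in suffix 1 and 23 and 16.5 in suffix 2. Mitochondrial UMIs had medians between 6.27% and 6.84% in the 4 groups. For the genes described most fully, values among cells of like CD150 tag or of like depth are given below.

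The transcript of the tagged protein stood higher in tag-high cells of both suffixes. Clca3a1 had 14 UMIs in tag-high and 1 UMI in tag-low cells of suffix 1, which is 17.1 CPM (9.35 to 28.7) against 1.35 CPM (0.0342 to 7.52). In suffix 2 it had 244 and 98 UMIs, or 126 CPM (111 to 143) against 61.6 CPM. The ratio was 12.7 in suffix 1 with an interval of 1.93 to 535, and 2.04 in suffix 2 with an interval of 1.61 to 2.61, so both lay above 1 and the first is loosely set. The middle tercile lay at 1.44 CPM in suffix 1, level with the tag-low cells, and at 82.9 CPM in suffix 2, between the other groups. With 16 UMIs in the whole gate of suffix 1, Clca3a1 stayed below the limit of 30 UMIs per suffix over the compared terciles and was not among the genes tested.

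A captured Clca3a1 UMI was found in more tag-high than tag-low cells of suffix 2. No share of free RNA was set beside these shares. After each cell was thinned to 9000 UMIs, a Clca3a1 UMI was found in 63.8% of 127 tag-high cells of suffix 2 (exact binomial interval 54.8% to 72.1%) and in 41.6% of 113 tag-low cells (32.4% to 51.2%), while 76.2% and 48.4% had one before thinning. In suffix 1 it was found in 4 of 56 tag-high (1.98% to 17.3%) and 0 of 53 tag-low cells (0% to 6.72%) after thinning, and those intervals overlap. Cells of under 9000 UMIs, 3 and 15 in suffix 2 and 3 and 7 in suffix 1, were left out. The other CLCA genes in the matrix, Clca1, Clca2, Clca3a2, Clca3b, Clca4a and Clca4b, had 0 UMIs in every tercile of both suffixes. Within terciles of the CD150 tag the Clca3a1 ratio was 4.89 (1.04 to 45.9) in suffix 1 and 2.39 (1.88 to 3.07) in suffix 2, and within terciles of UMIs per cell it was 13.2 (1.99 to 563) and 2.04 (1.60 to 2.60).

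Clu, which encodes the secreted chaperone clusterin, also stood higher with the tag and was below the limit for testing in suffix 1. It had 22 UMIs in tag-high, 10 in middle and 0 in tag-low cells of suffix 1, and 393, 230 and 184 UMIs in suffix 2. These were 26.9, 14.4 and 0 CPM in suffix 1 and 203, 132 and 116 CPM in suffix 2, an order that followed the tag in both. Against a floor of 3 UMIs in the tag-low group, Clu was at least 6.63-fold higher in tag-high cells of suffix 1, the exact counting interval of the ratio itself began at 4.95, and the ratio in suffix 2 was 1.75 (1.47 to 2.10). Among cells of like CD150 tag the ratios came to 1.95 (0.789 to 5.28) and 1.27 (1.07 to 1.51), and when the CLCA3A1 tag was taken relative to the unmapped tags they were 2.52 (0.843 to 9.02) and 1.01 (0.850 to 1.2). The interval in suffix 2 then held 1, and so did both intervals in suffix 1. In suffix 2 that relative split turned the other tags around, with a median of 689 CD150 tags in the upper and 824 in the lower tercile and of 35 and 42 unmapped tags, where the plain split had 915 and 685 CD150 tags and 51.5 and 30 unmapped tags.

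Across all genes, 6480 had at least 30 UMIs over the compared terciles in each suffix. Of these, 433 were higher in tag-high cells by 1.5-fold in suffix 1 (6.68% of those tested) and 184 in suffix 2 (2.84%), and 377 (5.82%) and 92 (1.42%) were lower. Both suffixes together gave 23 genes higher (0.355%) and 10 lower (0.154%). These 33 shared genes were 4.07% of the 810 past the fold in suffix 1 and 12% of the 276 in suffix 2. In 31 other genes both suffixes passed the fold in opposite directions, 11 higher in suffix 1 and lower in suffix 2 and 20 the reverse. The log2 ratios of the suffixes had a Pearson correlation of 0.0023 over the 6480 genes and the same sign in 49.5% of them, and among the 590 genes with at least 300 UMIs in suffix 1 the correlation was -0.0004. Across all genes the 2 libraries thus showed no common direction, and the 33 genes are given beside that.

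**Figure D2:**
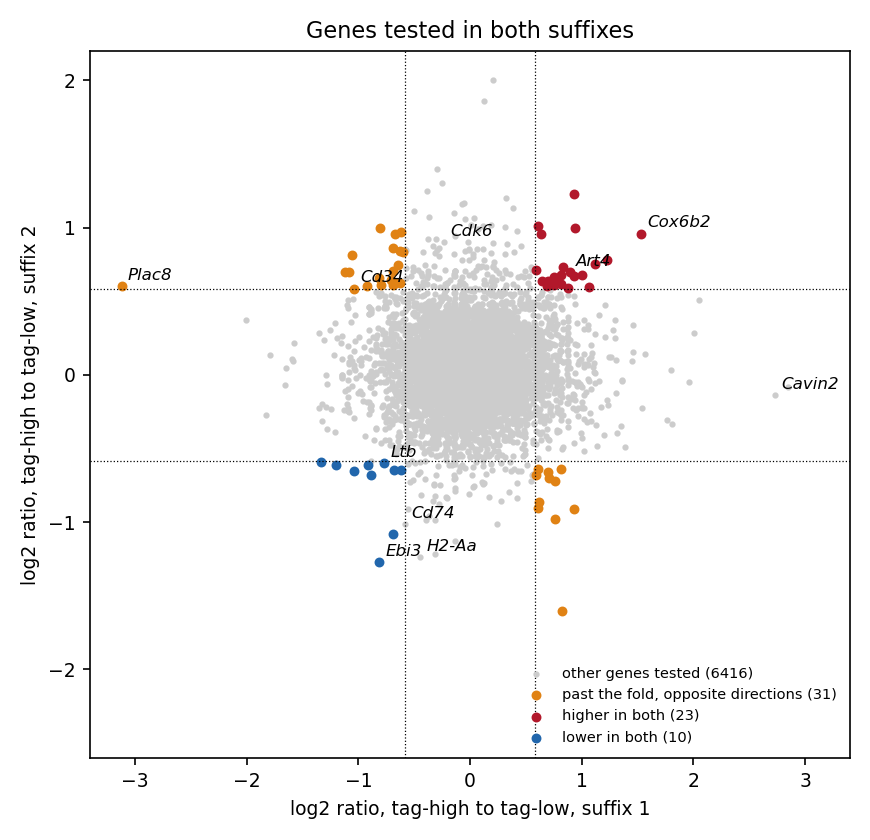
Log2 ratio of CPM, tag-high to tag-low, in suffix 1 (x axis) and suffix 2 (y axis) for the 6480 genes tested, with dotted lines at 1.5-fold. The 23 genes higher and the 10 lower in both suffixes sit in the corners on 1 diagonal, the 31 genes with opposite directions in the corners on the other.

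The called genes were mostly of low count. Their median was 38 UMIs over both terciles in suffix 1 and 71 in suffix 2, and in 26 of the 33 the counting interval held 1 in at least 1 suffix. The 7 genes with both intervals clear of 1 were Cox6b2, Phkb, Zfp322a, Art4, Hipk1, Ebi3 and Ltb, a group named here after its values were seen. The share over all genes tested was not counted. Cd34, Gmfg and Plac8, past the fold in opposite directions, also had both intervals clear of 1. The 7 were chosen by the fold from the same counts as their intervals, so nothing is read from their number. The middle tercile lay between the tag-high and tag-low levels for 24 of the 33 genes in suffix 1 and 19 in suffix 2, against 34.8% and 35.4% of all genes tested. The 33 were chosen by their end groups, so nothing is read from these shares.

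Of the genes called higher, Art4 had the most UMIs over both suffixes. It encodes an ADP-ribosyltransferase that carries the Dombrock blood group antigen. Its UMIs in tag-high, middle and tag-low cells were 54, 24 and 26 in suffix 1 and 293, 181 and 148 in suffix 2. Tag-high cells were higher in each library, with intervals of the levels that overlapped in suffix 1 and not in suffix 2, at 65.9 CPM (49.5 to 86.0) against 35.1 CPM (22.9 to 51.4) in suffix 1 and at 151 CPM (134 to 169) against 93.0 CPM (78.6 to 109) in suffix 2. The ratios were 1.88 (1.16 to 3.12) and 1.63 (1.33 to 1.99). Within terciles of the CD150 tag the intervals were 0.926 to 2.46 and 1.27 to 1.92, with suffix 1 just short of the fold. Relative to the unmapped tags the CLCA3A1 split gave 1.98 (1.2 to 3.33) and 1.28 (1.05 to 1.56), so that suffix 2 was short of the fold, and a split by the unmapped tags gave 0.756 to 2.10 and 1.02 to 1.53. At like depth the ratios were 2.04 (1.21 to 3.52) and 1.61 (1.32 to 1.96).

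Cox6b2, the testis-type isoform of a cytochrome c oxidase subunit, stood highest in suffix 1 among the genes called higher. It had 40 UMIs in tag-high and 12 in tag-low cells of suffix 1 and 61 against 25 in suffix 2, with ratios of 3.0 (1.55 to 6.31) and 2.00 (1.24 to 3.33). Its middle tercile, at 43.3 and 32.2 CPM, was level with the tag-high cells at 48.8 and 31.5 CPM. Phkb, the beta subunit of phosphorylase kinase, had 45 against 17 UMIs in suffix 1 and 83 against 39 in suffix 2, and its ratios were 2.39 (1.34 to 4.46) and 1.75 (1.18 to 2.63). Relative to the unmapped tags both genes were short of the fold in suffix 2, Cox6b2 at 1.43 (0.938 to 2.21) and Phkb at 1.38 (0.944 to 2.03). Zfp322a, a zinc finger gene, had 36 against 18 and 66 against 32 UMIs, with ratios of 1.81 (1.001 to 3.38) and 1.69 (1.09 to 2.67). Hipk1, a homeodomain-interacting kinase, had 68 against 39 and 141 against 74, with ratios of 1.58 (1.05 to 2.40) and 1.56 (1.17 to 2.10).

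The other leading genes higher with the tag had a counting interval that held 1 in at least 1 suffix. Kptn, a subunit of the KICSTOR complex that restrains mTORC1, had 22 against 10 UMIs in suffix 1 and 48 against 19 in suffix 2. Incenp, of the chromosomal passenger complex, had 26 against 12 and 34 against 11. Top2a, the topoisomerase of dividing cells, had 80 against 33 and 28 against 13, and 1 cell held 55.0% of its tag-high UMIs in suffix 1 and 1 cell 50.0% in suffix 2. In suffix 1 the direction of Top2a turned at like depth, with a ratio of 0.486 (0.275 to 0.835) within terciles of UMIs per cell, and it was 1.01 (0.601 to 1.69) within terciles of the CD150 tag and 0.640 (0.405 to 0.999) relative to the unmapped tags. Incenp likewise had 0.891 (0.403 to 1.95) at like depth and 0.775 (0.376 to 1.57) relative to the unmapped tags in suffix 1. Both genes act in cell division, and the 23 proliferation genes summed to 3028 CPM in tag-high and 3378 CPM in tag-low cells of suffix 1 and to 1890 and 1680 CPM in suffix 2. That sum was lower in tag-high cells of suffix 1 and higher in those of suffix 2. Ap1g1 (vesicle coat adaptor), Pcgf6 (a Polycomb subunit), Rars2 (mitochondrial arginyl-tRNA synthetase), Ptdss2 (phosphatidylserine synthase) and Dync2li1 (dynein of cilia) had ratios of 1.59 to 2.08, on 10 to 33 tag-low UMIs each. The 11 called genes not named by the rule include Hipk1, and the other 10 were Spast, Klhl28, Cep70, Fam210a, Cd302, Kdelc1, Mtss1, Sacm1l, Clp1 and Flad1, with ratios of 1.53 to 2.17.

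Of the 10 genes lower in tag-high cells, Ltb had by far the most counts. It encodes lymphotoxin beta, a membrane ligand of the tumour necrosis factor family that lymphoid cells use. Its UMIs in tag-high, middle and tag-low cells were 189, 198 and 292 in suffix 1 and 282, 329 and 352 in suffix 2. From tag-low over middle to tag-high cells its levels were 394, 286 and 231 CPM in suffix 1 and 221, 189 and 145 CPM in suffix 2, so the order ran against the tag in both. The ratios of tag-high to tag-low were 0.585 (0.485 to 0.705) and 0.658 (0.560 to 0.771), and within terciles of the CD150 tag they were 0.618 (0.510 to 0.746) and 0.665 (0.570 to 0.776). Within terciles of UMIs per cell they were 0.626 (0.515 to 0.759) and 0.751 (0.639 to 0.882). In suffix 2 Ltb was short of the fold at like depth and relative to the unmapped tags, and just short of it within CD150 terciles with 1 CPM added, so that the call was lost in each of these splits. A split by the unmapped tags gave 0.929 (0.762 to 1.13) and 0.883 (0.750 to 1.04), with 1 inside both intervals.

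Ebi3, a subunit of heterodimeric interleukins, had 26 against 42 UMIs in suffix 1 and 17 against 36 in suffix 2. Its ratios were 0.560 (0.330 to 0.935) and 0.388 (0.204 to 0.708), with 1 outside both intervals. Relative to the unmapped tags suffix 2 came to 0.841 (0.467 to 1.5), and a split by the unmapped tags gave 0.737 (0.414 to 1.31) in suffix 1 and 0.387 (0.211 to 0.688) in suffix 2. Gbp4, an interferon-induced GTPase, had 12 against 18 and 41 against 73 UMIs, but its middle tercile stood above both ends at 25 and 118 UMIs. Rgs2, which dampens G-protein signalling, had 24 against 56 and 26 against 33. Asb8, Anxa2, Ms4a6b, Ddi2, Blcap and 5430416N02Rik completed the set, with 13 to 41 UMIs in each tag-high group and ratios of 0.420 to 0.641.

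**Figure D3:**
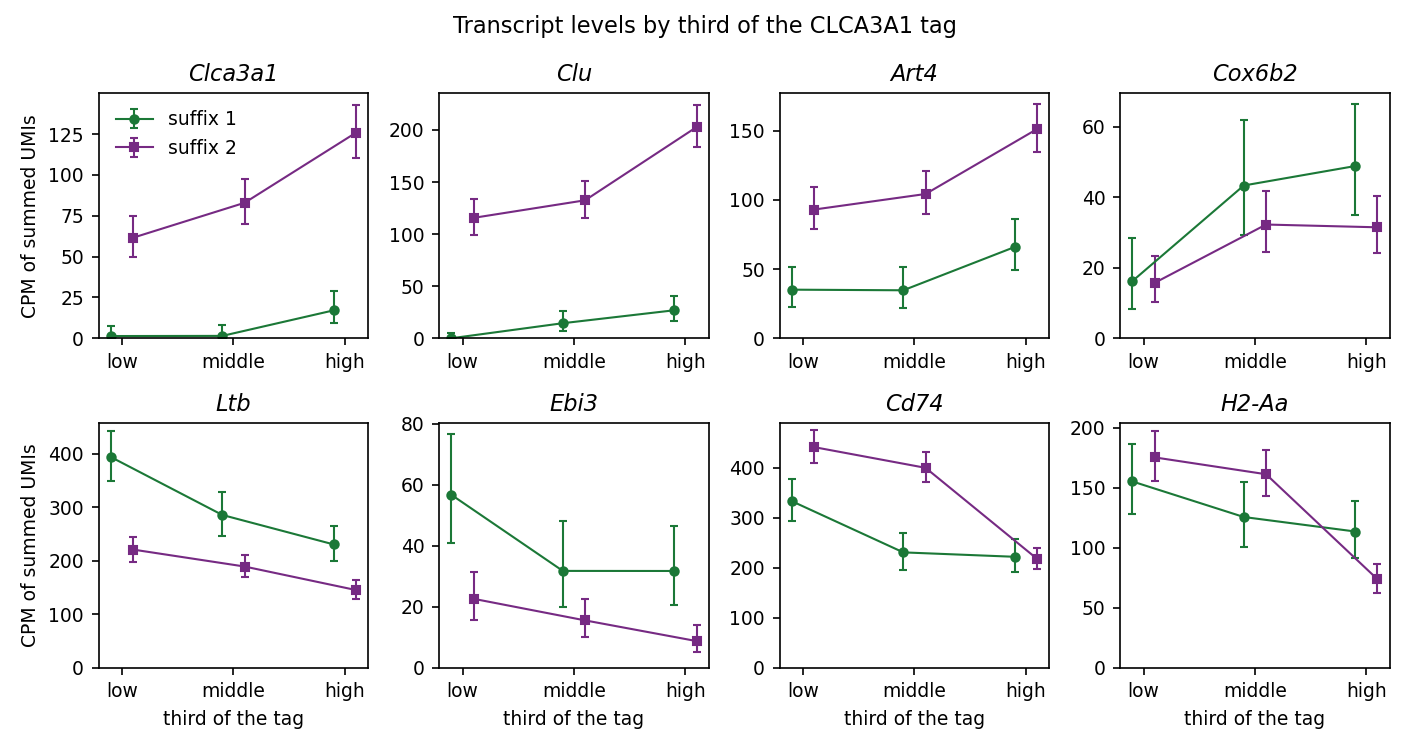
CPM of summed UMIs (y axis, from 0) in the low, middle and high terciles of the CLCA3A1 tag (x axis) for 8 genes, by suffix, with exact Poisson 95% intervals as bars. Clca3a1, Clu and Art4 are highest and Ltb, Ebi3 and Cd74 lowest, or within their interval of the lowest, in the tag-high tercile of each suffix.

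Of the 4 class II genes of the list, 0 were called in both suffixes, beside 0.154% of all genes tested called lower, and their values are given as a description. All 4 had ratios under 1 in each suffix. Of all genes tested, 49.5% had the same direction in both, a share that counts genes higher in both as well as genes lower in both. The share lower in both alone was not counted, so nothing is read from the common direction of the 4. The difference between the suffixes was not tested. Cd74 had 182 UMIs in tag-high, 160 in middle and 247 in tag-low cells of suffix 1, and 423, 695 and 703 in suffix 2. The tag-high cells held 222 CPM (191 to 257) against 333 CPM (293 to 378) in suffix 1 and 218 CPM (198 to 240) against 442 CPM (410 to 476) in suffix 2. Its ratios were 0.666 (0.547 to 0.810) and 0.494 (0.437 to 0.558), the first just short of the fold in log2 terms with 1 CPM added (-0.58), so that Cd74 was not called. H2-Aa, which encodes the alpha chain of I-A, had 93 against 115 UMIs in suffix 1 and 143 against 279 in suffix 2. Its ratios were 0.731 (0.550 to 0.970) and 0.421 (0.342 to 0.517). Within terciles of the CD150 tag they were 0.779 (0.591 to 1.02) and 0.527 (0.433 to 0.641), with 1 inside the first interval, and relative to the unmapped tags 0.713 (0.529 to 0.959) and 0.643 (0.524 to 0.788).

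H2-Eb1 and H2-Ab1, which encode class II beta chains, followed. H2-Eb1 had 64 against 72 UMIs in suffix 1 and 90 against 174 in suffix 2, with ratios of 0.804 (0.565 to 1.14) and 0.425 (0.326 to 0.551). H2-Ab1 had ratios of 0.761 (0.551 to 1.05) and 0.502 (0.392 to 0.640). In suffix 1 the intervals of both beta chain genes held 1. The class I genes and transporters of the list differed less. H2-K1, H2-D1, B2m, H2-T23, Tap1 and Tap2 had ratios of 0.844 to 1.03 in both suffixes, and H2-Q7 had 0.936 and 0.771. Over the 11 genes of the list, 0 were called in both suffixes and 4 were lower by 1.5-fold in suffix 2, all class II, beside 1.42% of all genes tested, and the median log2 ratios were -0.12 and -0.24 against -0.02 and 0.03 over all genes tested.

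The share of cells with a captured UMI was compared for Cd74 and H2-Ab1, with no share of free RNA set beside it. After thinning to 9000 UMIs, Cd74 was found in 41.7% of tag-high cells of suffix 2 (33% to 50.8%) and in 68.1% of tag-low cells (58.7% to 76.6%), and the shares before thinning were 46.2% and 68.0%. In suffix 1 they were 46.4% (33% to 60.3%) and 54.7% (40.4% to 68.4%), and those intervals overlap. H2-Ab1 was found in 50.0% of tag-high and 50.9% of tag-low cells of suffix 1 and in 29.1% and 38.9% of those of suffix 2, after thinning. The cell with the most Cd74 held 18.1% of the tag-high UMIs of suffix 1 and 8.04% of those of suffix 2. The ratio of Cd74 among cells of like depth was 0.611 (0.494 to 0.754) and 0.382 (0.332 to 0.438) within terciles of UMIs per cell, and among cells of like CD150 tag it was 0.749 (0.615 to 0.912) and 0.568 (0.506 to 0.638).

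The same gate was also split by the unmapped tags. That split called 18 genes higher (0.282%) and 19 lower (0.297%) of 6387 in both suffixes. Cd74 was lower in the upper tercile there too, at 0.631 (0.518 to 0.769) in suffix 1 and 0.585 (0.517 to 0.661) in suffix 2, and H2-Aa had 0.620 (0.460 to 0.833) and 0.542 (0.443 to 0.661). Clu was higher there, at 9.96 (2.49 to 86.6) and 2.06 (1.71 to 2.49). Clca3a1 was higher there too, with 11 against 0 UMIs in suffix 1 (interval from 1.92) and a ratio of 1.33 (1.05 to 1.68) in suffix 2. The cells of that upper tercile also had more CD150 and more CLCA3A1 tag, with median CLCA3A1 tags of 62.5 against 17.5 in suffix 1 and 280.5 against 147 in suffix 2. Taking the CLCA3A1 tag relative to the unmapped tags left Cd74 at 0.606 (0.493 to 0.745) and 0.648 (0.575 to 0.730), Ltb at 0.591 (0.491 to 0.711) and 0.693 (0.590 to 0.813), and Clca3a1 at 11.6 (1.72 to 497) and 2.04 (1.60 to 2.61). Whether the general tag yield of a cell has a part in the class II, Clu and Clca3a1 values was not tested beyond these splits.

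The tag was also split in cells outside the stem cell gate. Among CD48-high cells with CD150 at or under the median, where median tags were 16.5 against 1 in suffix 1 and 21 against 3 in suffix 2, 62 genes were called higher (0.709%) and 51 lower (0.583%) of 8747. There Cd74 stood higher in the upper tercile, by 6.45-fold (5.39 to 7.77) in suffix 1 and 1.59-fold (1.47 to 1.72) in suffix 2. H2-Aa was 7.42-fold (5.49 to 10.2) and 1.31-fold (1.19 to 1.44) higher. The direction of class II was thus opposite to that in SLAM cells in both suffixes. Art4 had 16 against 7 and 33 against 22 UMIs there, and Clca3a1 had 0 in suffix 1 and 13 against 1 in suffix 2. Clu was lower in the upper tercile there, the other way from SLAM cells, with 5 against 13 UMIs in suffix 1 (ratio 0.401, 0.112 to 1.2) and 2 against 32 in suffix 2 (0.0726, 0.00843 to 0.285). The difference between the gates itself was not tested. In a gate of low CD150 and low CD48, with 52 against 63 cells in suffix 1 and 19 against 19 in suffix 2, Cd74 had ratios of 0.629 (0.506 to 0.779) and 0.543 (0.436 to 0.674), while H2-Aa had 1.51 (1.03 to 2.23) and 0.686 (0.517 to 0.906).

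**Figure D4:**
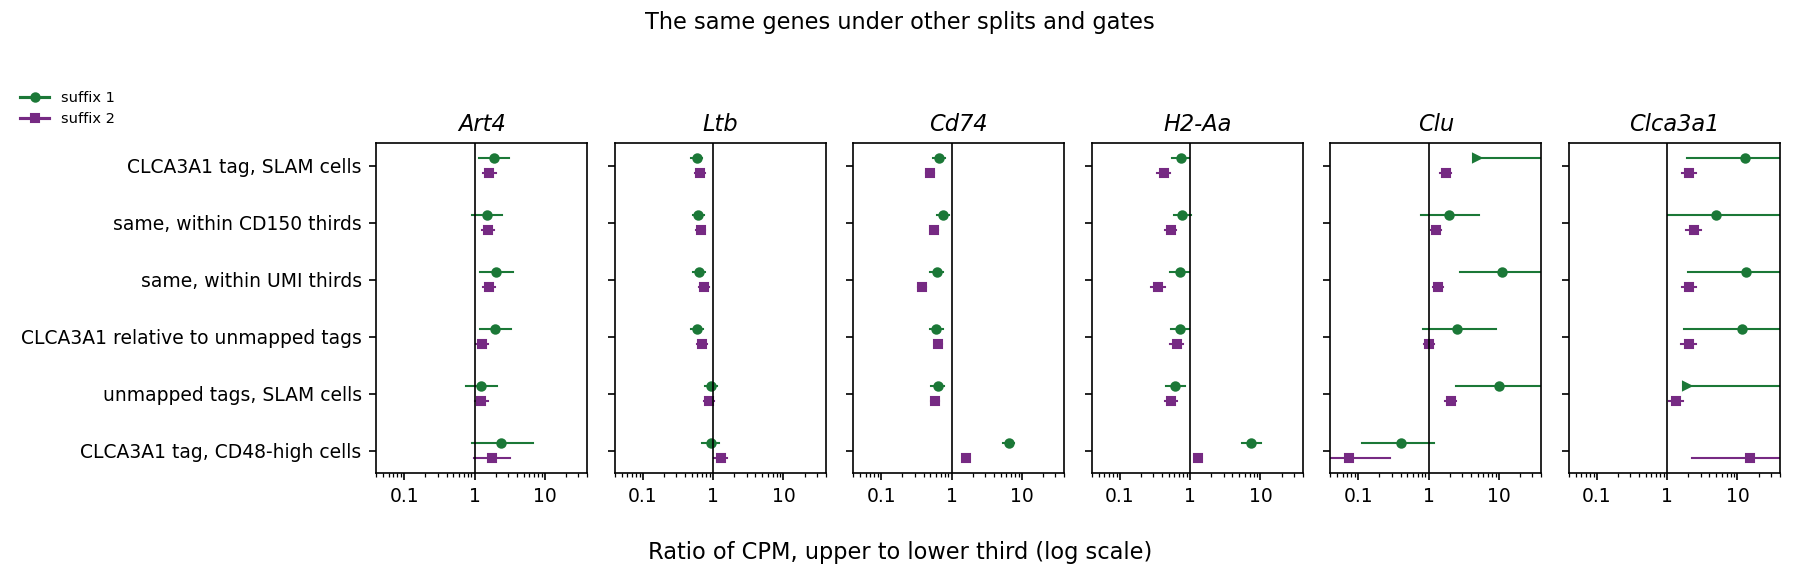
Ratio of CPM, upper to lower tercile, on a log axis for 6 genes under 6 splits (rows) in suffix 1 (circles) and suffix 2 (squares), with exact 95% counting intervals. An arrowhead marks the lower bound where the lower tercile had 0 UMIs, and missing points had 0 UMIs in both terciles. Intervals beyond the axis are drawn to its edge. Cd74 and H2-Aa lie below 1 in the 5 splits of SLAM cells and above 1 in CD48-high cells.

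Promoters of the genes on which these results turn are shown because TAZ acts through TEAD factors, PU.1 is a regulator that the study also examined, and class II promoters share a CCAAT element, the Y box. Of 8 genes looked up in the RefSeq promoter table (GRCm38.p6, the same assembly as the mm10 of the submitters' processing notes), 5 had an entry that could be shown, and Clu, H2-Ab1 and Cd74 are named only. Each run is 300 bases, from 250 before the transcript start, in the gene's own direction. Capitals mark GGAATG (TEAD), GAGGAA (PU.1) or CCAAT (Y box) on either strand, and no marked stretch overlaps another.
Clca3a1, chr3:144760928-144761227, minus strand: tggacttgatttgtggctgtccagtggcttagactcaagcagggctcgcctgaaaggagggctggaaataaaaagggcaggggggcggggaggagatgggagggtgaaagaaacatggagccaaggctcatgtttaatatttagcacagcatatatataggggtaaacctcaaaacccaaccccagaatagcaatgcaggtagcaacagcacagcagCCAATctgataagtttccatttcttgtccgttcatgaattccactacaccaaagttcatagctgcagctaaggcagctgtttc
Art4, chr6:136857551-136857850, minus strand: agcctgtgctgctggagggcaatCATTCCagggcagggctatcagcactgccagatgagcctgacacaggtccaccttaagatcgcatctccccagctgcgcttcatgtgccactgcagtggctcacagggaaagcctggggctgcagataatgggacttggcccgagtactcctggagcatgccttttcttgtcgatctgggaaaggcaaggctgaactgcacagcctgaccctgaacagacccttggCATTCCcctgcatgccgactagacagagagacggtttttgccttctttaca
Ltb, chr17:35194257-35194556, plus strand: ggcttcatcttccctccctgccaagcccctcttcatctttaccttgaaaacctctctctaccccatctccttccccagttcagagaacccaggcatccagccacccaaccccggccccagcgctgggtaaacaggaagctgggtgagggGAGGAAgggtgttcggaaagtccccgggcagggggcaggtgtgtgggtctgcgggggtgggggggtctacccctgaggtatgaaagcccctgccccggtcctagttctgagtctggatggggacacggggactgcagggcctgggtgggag
H2-Aa, chr17:34287774-34288073, minus strand: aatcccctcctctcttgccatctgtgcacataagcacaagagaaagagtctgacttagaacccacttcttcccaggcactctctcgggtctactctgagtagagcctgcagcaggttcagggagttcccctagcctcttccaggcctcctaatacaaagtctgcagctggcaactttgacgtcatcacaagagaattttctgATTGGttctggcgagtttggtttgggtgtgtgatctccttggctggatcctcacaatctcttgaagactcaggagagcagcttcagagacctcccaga
H2-Eb1, chr17:34305617-34305916, plus strand: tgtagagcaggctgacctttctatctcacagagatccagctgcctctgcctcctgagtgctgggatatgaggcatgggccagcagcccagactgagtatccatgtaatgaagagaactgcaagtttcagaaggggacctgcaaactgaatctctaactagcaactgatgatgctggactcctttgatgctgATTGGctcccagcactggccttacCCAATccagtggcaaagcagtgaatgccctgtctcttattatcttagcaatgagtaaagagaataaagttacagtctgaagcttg

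The Clca3a1 window held a CCAAT 33 bases before the start and none of the other motifs. Art4, higher with the tag, held the TEAD letters at 227 bases and at 1 base before the start. Ltb, lower with the tag, held the PU.1 letters 101 bases before the start. H2-Aa held the Y box letters 48 bases and H2-Eb1 35 and 59 bases before the start. Over 32851 promoters of the same length, GGAATG was found in 14.7%, GAGGAA in 28.3% and CCAAT in 37.4%. A match is a match of letters only, and a window without one says nothing of the factor.

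A list of genes higher in CLCA3A1-high stem cells, published with these data, came from bulk RNA of sorted cells and not from these libraries. Of its 108 symbols in the matrix 40 were tested, and their median log2 ratio was 0.75 in suffix 1, where 38 lay above 0, and 0.07 in suffix 2, where 23 did. In suffix 1, 26 of the 40 were higher by 1.5-fold, beside 6.68% of all genes tested, and in suffix 2 only Art4 was, beside 2.84%. Lower by 1.5-fold were 1 in suffix 1, beside 5.82%, and 2 in suffix 2, beside 1.42%. Art4 was the 1 member called in both. Those with the widest gap between the libraries included Cavin2, a caveolar coat gene, with 56 against 7 UMIs in suffix 1 and 363 against 328 in suffix 2, and Vwf, the von Willebrand factor of platelets and endothelium, with 38 against 12 and 270 against 199. Mycn, a proto-oncogene of the MYC family, had 157 against 57 and 569 against 435.

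Matching on the CD150 tag changed the list values in suffix 1. Within terciles of CD150 the median of the 40 genes was 0.35 in suffix 1, with 33 above 0, and -0.01 in suffix 2, with 19 above 0. Cavin2 then had a ratio of 2.56 (1.31 to 5.28) in suffix 1 where it had 7.24 (3.29 to 18.8) before, and Slamf1 had 0.977 (0.417 to 2.29) where it had 2.60 (1.12 to 6.72). Matching on depth left the median at 0.77 in suffix 1 and 0.07 in suffix 2. A split by the unmapped tags gave a median of 0.52 in suffix 1, with 35 above 0, and of 0.08 in suffix 2, with 28 above 0. The median CD150 tags were still 228 against 160 in suffix 1 after matching on that tag, so the match was partial.

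**Figure D5:**
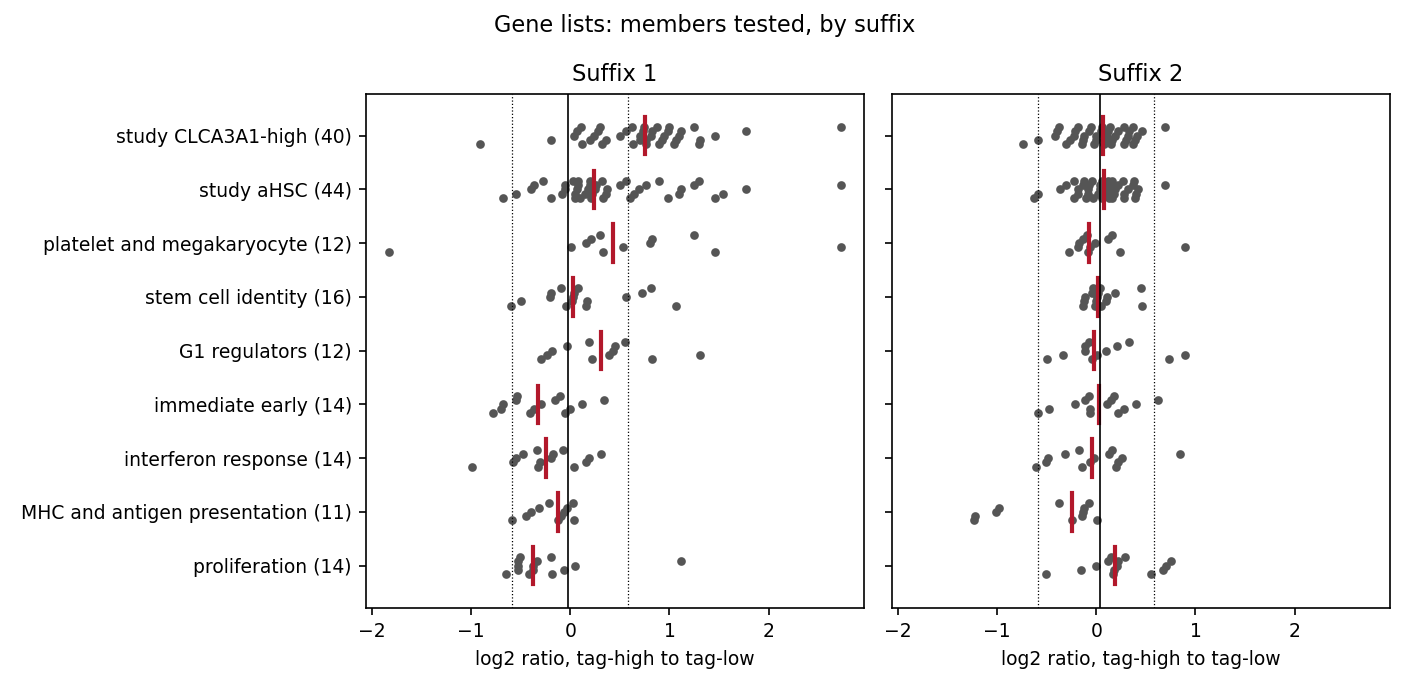
Log2 ratio, tag-high to tag-low, of each tested member (points, spread vertically for sight) of 9 gene lists in suffix 1 (left) and suffix 2 (right). Red bars are list medians, the solid line is the median of all genes tested and dotted lines mark 1.5-fold; numbers in brackets are members tested. The CLCA3A1-high list has its median at 0.75 in suffix 1 and 0.07 in suffix 2.

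For the other lists, 0.355% of all genes tested were called higher and 0.154% lower in both suffixes, so that counts of 0 or 1 in lists of this size are near the background and nothing is read from them. The aged stem cell list, taken by the study from a meta-analysis, had 44 genes tested, medians of 0.24 and 0.07 with 35 and 28 genes above 0, and 1 call in both suffixes, again Art4. In suffix 1, 14 of the 44 were higher and 1 lower by 1.5-fold, beside 6.68% and 5.82% of all genes tested, and in suffix 2, 1 was higher and 2 lower, beside 2.84% and 1.42%. The aLT-Taz list, of TAZ-induced genes of old stem cells, had 3 genes tested, Vwf, Hoxa5 and Cdkn1c, with 0 called, and Cdkn1c, a brake on the cell cycle, had 65 against 33 UMIs in suffix 1 and 156 against 182 in suffix 2. The list of myeloid-biased stem cells had 5 genes tested, medians of 0.73 and 0.12 and 0 called. Of the 12 platelet and megakaryocyte genes tested 0 were called, with medians of 0.43 and -0.07. The 16 stem cell identity genes had 0 called and medians of 0.03 and 0.02. In the aged, aLT-Taz, myeloid-biased and platelet lists the median was higher in suffix 1 than in suffix 2. These lists share members, with Vwf in each of them and Cavin2 in the aged and platelet lists, so they are not separate observations.

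Few genes of the Hippo pathway had counts enough to compare. Wwtr1 had 5 UMIs in tag-high and 1 in tag-low cells of suffix 1 and 47 against 41 in suffix 2, with ratios of 4.52 (0.506 to 214) and 0.941 (0.606 to 1.47). A difference of Wwtr1 was not detectable at the depth of suffix 1, and the interval in suffix 2 held 1. Of the 6 Hippo genes tested 0 were called in both, and Mob1b, a kinase coactivator, was past the fold in suffix 2 alone, with 66 against 30 UMIs and a ratio of 1.81 (1.16 to 2.88). Spi1 had 82 against 95 UMIs in suffix 1 and 117 against 140 in suffix 2. Its ratios, 0.781 (0.574 to 1.06) and 0.686 (0.532 to 0.883), were both under 1, and the second was clear of it. That was lost in suffix 2 relative to the unmapped tags, at 0.921 (0.714 to 1.19), where suffix 1 had 0.992 (0.726 to 1.36), and within terciles of the CD150 tag the ratios were 0.901 (0.661 to 1.23) and 0.773, the latter with 1 at the edge of its interval. Within terciles of UMIs per cell Spi1 was clear of 1 in suffix 2, at 0.736 (0.563 to 0.960), and not in suffix 1, at 0.802 (0.583 to 1.1).

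The counts of called genes in the lists of cell cycle, early response and lineage priming stand beside the same 0.355% and 0.154%. Cdk6, the kinase that drives cells out of quiescence, had 78 against 83 UMIs in suffix 1 and 213 against 93 in suffix 2, with ratios of 0.850 (0.616 to 1.17) and 1.88 (1.47 to 2.43). Within terciles of the CD150 tag these were 1.32 (0.968 to 1.81) and 1.92 (1.49 to 2.48), so that the value of suffix 1 then lay above 1. Cd34, of progenitors, had 0.485 (0.378 to 0.618) and 1.52 (1.07 to 2.17), and within terciles of the CD150 tag 0.904 (0.717 to 1.14) and 1.54 (1.09 to 2.19), where the interval of suffix 1 held 1. At like depth it had 0.512 (0.401 to 0.650) in suffix 1, and the interval of suffix 2, 0.820 to 1.62, held 1. Flt3, also of progenitors, had 5 UMIs in tag-high and 15 in tag-low cells of suffix 1, a ratio of 0.301 (0.0857 to 0.873). In suffix 2 it had 4 against 4 UMIs, and it was below the limit for testing. Among 12 G1 regulators tested 0 were called, and Cdkn1b, a cyclin-dependent kinase inhibitor, had 44 against 27 and 62 against 30 UMIs. Klf2 and Klf6, immediate early zinc finger genes, had ratios of 0.611 (0.415 to 0.894) and 0.716 (0.599 to 0.855), and of 0.752 (0.561 to 1.01) and 0.664 (0.552 to 0.797). The 14 immediate early genes had 0 called and medians of -0.33 and 0.02. Of 14 interferon response genes 0 were called. Iigp1, an interferon-induced GTPase, had 0.683 (0.491 to 0.947) and 0.700 (0.576 to 0.850), and its middle cells lay below both ends in suffix 1, at 72.2 CPM, and above both in suffix 2, at 234 CPM.

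Of 3 lymphoid genes tested 1, Ltb, was called lower, while Notch1 had 24 against 16 and 47 against 29 UMIs, and Cd27 117 against 144 and 170 against 151. Of 6 myeloid genes 0 were called, and Lyz2, a lysozyme gene, had 298 against 192 UMIs in suffix 1 and 561 against 401 in suffix 2. Of 3 erythroid genes 0 were called. Hbb-bt, a beta globin gene, had 28 against 14 UMIs in suffix 1 and 64 against 163 in suffix 2, and Car2, a carbonic anhydrase, had ratios of 0.909 (0.819 to 1.01) and 0.795 (0.740 to 0.853). The 14 stem cell surface genes tested and the 14 proliferation genes gave 0 and 1 called, the last being Top2a.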

How the data were processed

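LSK cells of the young and the old pool were profiled on a droplet platform. The authors aligned and counted reads with Cell Ranger 3.1.0 and combined the libraries with its aggregation step, whose normalization mode is not given in the sources used here. The deposited matrix holds UMI counts of 31053 genes in 4688 cells, after that step. The deposited tags are log10 values that the authors made with CITE-seq-Count. 10 to their power was a whole number to within 1e-06. A tag count of 0 was placed lowest.

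UMIs were summed per tercile and suffix in Python 3.11.15 (numpy 2.4.6, scipy 1.17.1, pandas 2.3.3), scaled to CPM, and compared as log2 ratios with 1 CPM added among genes with at least 30 UMIs in each suffix. Intervals are exact Poisson for CPM, exact conditional binomial for ratios and order-statistic for medians, at 95%. The suffixes were not assigned to ages, so no test was made. The script was tested on simulated counts. Scrublet (scanpy 1.11.5) called 5 cells of suffix 1 (0.328%) and 32 of suffix 2 (1.26%) doublets, with 0 in the gate, and none were removed.

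Genes were named by rule: up to 12 called genes per direction, the CLCA family, Wwtr1, Spi1, Cdk6, Clu, Vwf, Slamf1, Cd48, Cd34 and Flt3, and up to 4 members per list. The cells, the rule and the lists were chosen with earlier results of these data known. The study's lists were read from page text with some misread symbols, which were left unmatched. UMIs of markers of basophils and mast cells summed to 2.44, 0, 1.03 and 0 CPM in tag-high and tag-low cells of suffix 1 and then of suffix 2, and of endothelium and stroma to 89.1, 109, 89.8 and 87.3 CPM. Alternatives were tried for gate, split, filter, fold and scaling.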

Additional observations from a re-analysis of the deposited data

Results flagged for a closer look

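Cd34, Gmfg and Plac8 stood out because each had at least 100 UMIs over the compared terciles in both suffixes and passed 1.5-fold in opposite directions in them. Cd34, the sialomucin of progenitors, had a log2 ratio of tag-high to tag-low of -1.04 in suffix 1 (104 against 194 UMIs) and 0.59 in suffix 2 (96 against 52). Within terciles of the CD150 tag its ratio in suffix 1 was 0.904 (0.717 to 1.14), and the opposite directions past the fold were lost. Gmfg, an actin regulator of blood cells, had -0.92 (152 against 261 UMIs) and 0.60 (267 against 144). Plac8 had -3.12 (12 against 100 UMIs) and 0.60 (86 against 46), and the cell with the most Plac8 held 18.0% of the tag-low UMIs in suffix 1 and 28.3% in suffix 2. The difference between the libraries was not tested, because each is 1 pool of 1 age, and library, mice and age cannot be told apart.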

How the results depend on the processing

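Tag-high and tag-low cells were compared within each library. The labels give no replicate numbers, so no further block was fitted. The counts of 23 genes higher and 10 lower moved under several settings. With 10 CPM added they were 5 and 1, at a minimum of 10 UMIs 102 and 61, at 100 UMIs 1 and 1, and without a filter 447 and 306. At the smaller fold tried they were 167 and 111, and at a fold of 2 they were 0 and 0. With each suffix alone the counts ranged from 184 to 433 higher and from 92 to 377 lower. The tag relative to the unmapped tags gave 15 higher, quartiles gave 16 lower, and a gate at the 67th and 33rd percentiles gave 18 lower. Tags of at least 100 against under 60 in both suffixes, chosen after seeing the data, gave 71 higher and 33 lower, with 150 genes in opposite directions. Shared and opposite counts were 163 and 171 from 10 UMIs up and 753 and 763 without a filter.

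The mean log2 ratio of Clca3a1 over the suffixes, 1.98, ranged from 1.02 to 2.94 with each suffix alone and stayed above 0 in every alternative run. The median of the study's CLCA3A1-high list, as a mean of both suffixes, was 0.41 (0.07 to 0.75 with each suffix alone) and this mean also stayed above 0, but in suffix 2 alone the median was -0.01 within terciles of the CD150 tag, with 19 of 40 genes above 0, and -0.01 relative to the unmapped tags, with 18. Gbp4 turned to 0.14 with the wider gate, Top2a to -0.24 within terciles of UMIs per cell and to -0.33 with the same tag counts, and Rgs2 to 0.47 with the same tag counts. Cox6b2 came to 0.55 with the gate's cells split at the median tag. Incenp came to 0.01 relative to the unmapped tags, from 1.08. The cause was not tested. Of the gene values under alternatives, 512 moved by less than their counting error, 42 by more, and 4 values of called genes changed sign. Depth limits most called genes, whose median was 38 UMIs in suffix 1.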
